A study of Mus musculus with 4 samples.

Results

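The genes described here encode chaperones and folding enzymes of the endoplasmic reticulum (ER), their stress-induced transcription factor XBP1 and the ER membrane protein HERPUD1. They are Hspa5, Hsp90b1, Pdia3, Pdia4, Pdia6, Calr, Canx, Dnajb9, Xbp1 and Herpud1, 10 genes of the 13085 in the deposited tables, and their rows were found by symbol, the genes themselves having been picked with earlier results of these data known. RNA was sequenced from 4 stable lines of 3T3-L1 cells, a mouse preadipocyte line that turns into lipid-storing adipocytes under hormones, on differentiation day 8. FLAG cells carried the empty FLAG vector and FLAG-CACUL1 cells overexpressed CACUL1, a protein studied as a repressor of the adipogenic nuclear receptor PPARγ, from the same vector. Cells of the sh-CACUL1 line carried a short hairpin RNA that depletes CACUL1, and cells of the sh-Luc line a hairpin directed at luciferase. Differentiation of all lines was started with rosiglitazone at 5 μM, IBMX at 0.5 mM, dexamethasone at 1 μg/mL and insulin at 5 μg/mL. The FLAG lines were selected with G418 and the sh lines with Hygromycin B, and whether resistant colonies were pooled or grown as single clones is not given in the sources used here. Each line had 1 sample, so no difference below has a replicate check and no test between lines was possible.

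As background, the ER folds secreted and membrane proteins, and an adipocyte secretes large amounts of proteins such as adiponectin. When unfolded proteins accumulate, the sensors IRE1, PERK and ATF6 start the unfolded protein response. IRE1 splices Xbp1 mRNA so that an active transcription factor is made, ATF6 is cleaved into another, and both raise transcription of ER chaperone and degradation genes through stress elements in their promoters. PERK acts by way of ATF4 on a separate group of genes, among them Ddit3, which encodes CHOP.

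The stress elements are shown first because they are what most of these genes have in common before their start sites. The ER stress response element (ERSE) was searched as CCAAT, a gap of 9 bases and CCACG, on both strands of the 250 bases before each RefSeq start (build GRCm38.p6). It was found in 5 of the 10 genes, Hspa5, Hsp90b1, Pdia6, Calr and Canx, and in 37 of 32851 windows of the same length over the genome (0.113%). A shorter form that ends in CCAC, contained in every ERSE, was found in those 5 and in Pdia3, Pdia4 and Herpud1, against 0.320% of all windows. ERSE-II, searched as ATTGG, 1 base and CCACG, was found in Herpud1 alone among the 10 and in 0.0304% of all windows. In these lines the capitals mark the outer parts of each element, which is printed on the strand where it reads as searched.
Hspa5 ERSE (chr2:34772025-34772043): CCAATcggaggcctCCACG
Hsp90b1 ERSE (chr10:86705638-86705656): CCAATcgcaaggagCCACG
Hsp90b1 ERSE (chr10:86705533-86705551): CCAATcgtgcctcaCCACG
Pdia6 ERSE (chr12:17266491-17266509): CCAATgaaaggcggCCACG
Calr ERSE (chr8:84847075-84847093): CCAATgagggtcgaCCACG
Canx ERSE (chr11:50325800-50325818): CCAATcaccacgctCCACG
Pdia3 short ERSE (chr2:121413873-121413890): CCAATcggcggctgCCAC
Pdia4 short ERSE (chr6:47813602-47813619): CCAATcacgggctgCCAC
Herpud1 short ERSE (chr8:94386411-94386428): CCAATggatggcagCCAC
Herpud1 ERSE-II (chr8:94386377-94386387): ATTGGgCCACG
The ACGTG core, which overlaps the ERSE-II of Herpud1, was found in Hspa5, Pdia6, Calr, Dnajb9 and Herpud1, and in 16.6% of all windows (18.5% of genes). Neither ERSE form nor ERSE-II was in the windows of Dnajb9 and Xbp1, which says only that these letters are not there. A match is a description of the sequence, and no binding was measured.

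**Figure D1:**
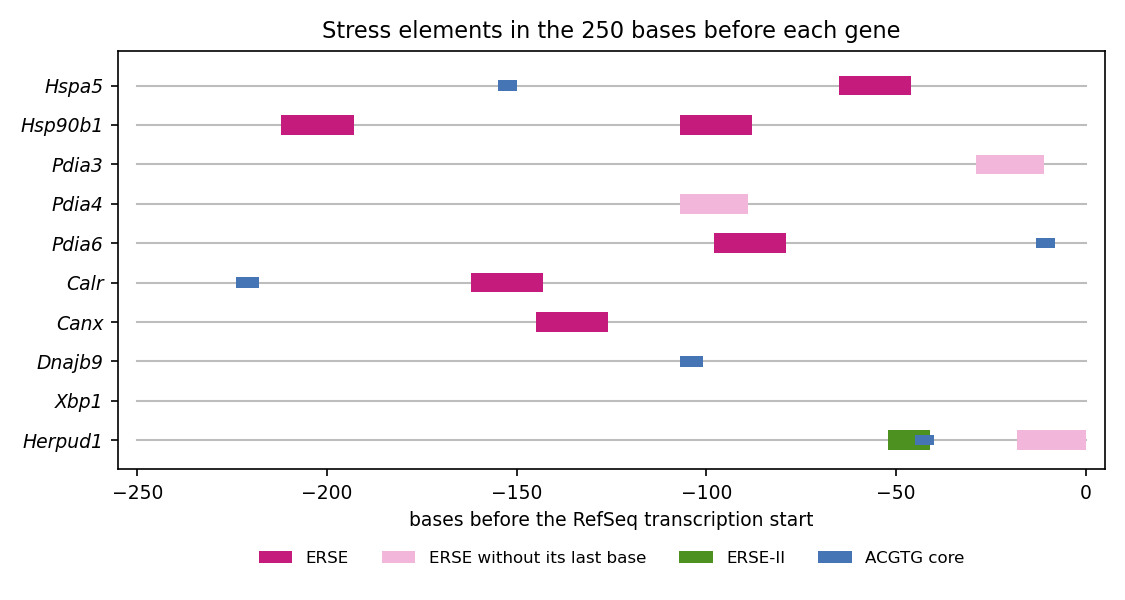
Elements in the 250 bases before the RefSeq transcription start of each gene. The horizontal axis is the distance to the start in bases, and bars are matches on either strand. Hsp90b1 holds a pair of ERSEs, Pdia3, Pdia4 and Herpud1 hold the form that lacks the last base, and Xbp1 holds none of the elements searched.

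The RefSeq starts and the GENCODE M21 gene records do not always coincide, since 120 bases of the Hspa5 window, 127 of the Pdia3 window and all 250 of the Dnajb9 window lie inside the GENCODE gene, and shorter stretches of the Hsp90b1, Pdia6 and Calr windows do. The windows of Canx, Herpud1 and Xbp1 lie wholly outside it and are printed on the strand of the gene, from chr11:50325674-50325923, chr8:94386179-94386428 and chr11:5520391-5520640, respectively. They were chosen to show a window with an ERSE, one with an ERSE-II and one with neither, and the capitals mark the ERSE of Canx and the ERSE-II of Herpud1 with their gaps.
Canx: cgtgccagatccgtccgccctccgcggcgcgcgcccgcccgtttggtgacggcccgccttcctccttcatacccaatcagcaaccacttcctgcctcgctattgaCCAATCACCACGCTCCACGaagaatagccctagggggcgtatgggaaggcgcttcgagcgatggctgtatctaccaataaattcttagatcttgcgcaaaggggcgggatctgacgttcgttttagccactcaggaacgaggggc
Herpud1: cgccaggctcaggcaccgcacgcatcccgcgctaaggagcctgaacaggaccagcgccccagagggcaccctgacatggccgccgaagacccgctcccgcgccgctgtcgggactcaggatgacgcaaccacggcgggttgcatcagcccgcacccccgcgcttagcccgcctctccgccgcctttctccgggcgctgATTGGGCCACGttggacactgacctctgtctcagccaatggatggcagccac
Xbp1: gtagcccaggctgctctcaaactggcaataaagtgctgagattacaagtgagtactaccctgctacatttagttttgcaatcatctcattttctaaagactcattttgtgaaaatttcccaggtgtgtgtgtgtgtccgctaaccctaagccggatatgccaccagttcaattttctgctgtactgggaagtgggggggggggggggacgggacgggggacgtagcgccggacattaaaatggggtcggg

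Each of the 10 genes had 1 row in the tables and passed 1 FPKM in every sample. FPKM divides the fragments of a row by its transcript length and by the depth of the sample, so it is a level per length and can be compared between genes. From the spacing of low values the samples held an estimated 14300000 fragments in FLAG against 14400000 in FLAG-CACUL1, and 24200000 in sh-Luc against 15000000 in sh-CACUL1. At these depths the genes had from 833 fragments (Herpud1 in sh-CACUL1) to 53924 (Hspa5 in FLAG), and the 95% counting intervals given below cover counting error only. Where 4 values stand without names, the FLAG control comes first, then its CACUL1 line, then the luciferase control and its CACUL1 hairpin. The target Cacul1 had 9.61 FPKM in FLAG against 11.78 in FLAG-CACUL1, and 10.25 in sh-Luc against 5.39 in sh-CACUL1. On FPKM + 1 its log2 fold changes were 0.27 and -0.82, so neither passed 2-fold at the level of RNA. The authors checked the stable lines at the level of protein, by western blotting for FLAG or CACUL1. Whether this row also counts RNA made from the FLAG-CACUL1 vector was not tested. Together the 10 genes took 0.873% of all FPKM in FLAG against 0.716% in FLAG-CACUL1, and 0.579% in sh-Luc against 0.714% in sh-CACUL1. In every sample Calr, Hspa5 and Hsp90b1 held the 3 highest levels of the 10, and Dnajb9 or Herpud1 the lowest.

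The lines also differed in how far adipocyte genes were expressed. The summed level of 10 adipocyte markers was 8541 FPKM in FLAG against 892 in FLAG-CACUL1, and 1721 in sh-Luc against 17818 in sh-CACUL1, and each of the 10 was past 2-fold, downward in FLAG-CACUL1 and upward in sh-CACUL1, relative to its own control. Between the controls, sh-Luc had 9 of the 10 at least 2-fold below FLAG. The 9 measured of 10 preadipocyte or fibroblast markers summed to 7490, 11888, 5978 and 1113 FPKM, respectively. Of these 9, 5 were at least 2-fold higher and 1 lower with overexpression, and 2 (Dlk1 and Thy1) higher and 6 lower with depletion. From sh-Luc to sh-CACUL1, Dlk1 went from 0.220 to 21.2 FPKM and Thy1 from 0.663 to 34.3, while the sum rests mostly on collagens and Fn1. The summed level of 3 measured macrophage markers lay between 2.91 and 68.3 FPKM. The only measured endothelial marker, Pecam1, was at most 0.301 FPKM. The part of these differences in the levels of ER genes was not tested, and in bulk RNA fewer cells of a kind and less RNA per cell cannot be told apart.

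In FLAG-CACUL1, Hspa5, Dnajb9 and Xbp1 were at least 2-fold below the FLAG control. In sh-CACUL1, Dnajb9 and Pdia4 were at least 2-fold above sh-Luc, joined by Pdia6 and Xbp1 after median-of-ratios scaling or quantile normalization, while the FPKM of Calr and Canx were nearly level over all 4 samples. The same 3 genes, Hspa5, Dnajb9 and Xbp1, were also at least 2-fold lower in sh-Luc than in FLAG, that is, between controls that differ in vector and selection drug. Against sh-Luc in place of FLAG, none of the 3 was lower in FLAG-CACUL1.

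**Figure D2:**
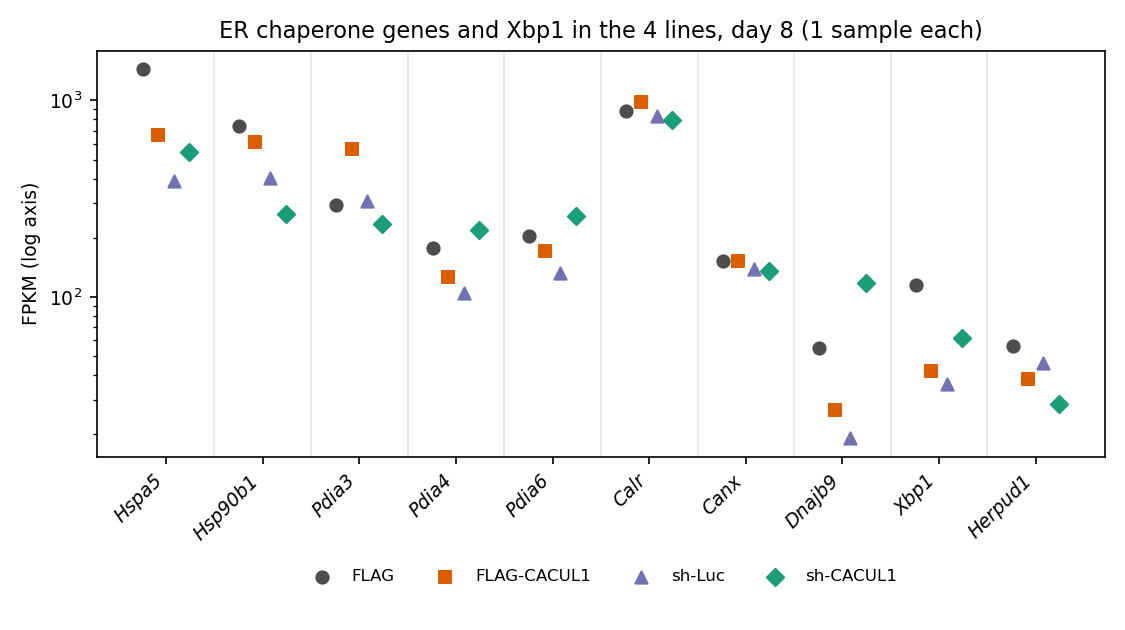
Level of each gene in FPKM on a log axis, with 1 point for each of the 4 lines (1 sample each). Hspa5 and Xbp1 were highest in FLAG and lowest in sh-Luc, Dnajb9 spread from 19.1 to 118 FPKM, and the 4 points of Calr and of Canx lie close together.

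Hspa5 (NM_022310 and NM_001163434, chr2:34771970-34777547 on the plus strand of GRCm38) encodes BiP, the ER chaperone of the HSP70 family that holds the stress sensors inactive until unfolded proteins draw it away. Its level was 1441 FPKM in FLAG against 669.6 in FLAG-CACUL1, and 386.5 in sh-Luc against 545.5 in sh-CACUL1. FLAG stood above the other 3 samples, and sh-Luc was the lowest. Its log2 fold change, here and below of FPKM + 1, was -1.11 for FLAG-CACUL1 against FLAG and 0.50 for sh-CACUL1 against sh-Luc, which leaves the latter under 2-fold. Counting error was small beside these values, with an interval of the log2 ratio from -1.13 to -1.08 for the former and from 0.47 to 0.52 for the latter. The controls were further apart than either condition from its control, with -1.90 for sh-Luc against FLAG.

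Dnajb9 (NM_013760, chr12:44205559-44210326, minus strand) encodes ERdj4, a cochaperone that stimulates the ATPase of BiP and is a known target of XBP1. It had 55.1 FPKM in FLAG against 26.4 in FLAG-CACUL1, and 19.1 in sh-Luc against 118 in sh-CACUL1. It spread over the samples by 6.19-fold, more than any of the other 9 genes. In FLAG-CACUL1 its log2 fold change was -1.03, close to the 2-fold limit, with a counting interval from -1.17 to -0.95 that reaches across it. In sh-CACUL1 it was 2.57, which put Dnajb9 at percentile 99.5 of the changes of all genes. Unlike Hspa5, it was also higher in sh-CACUL1 than in FLAG, by 1.09. Dnajb9 shares 11.3% of its 31-base stretches with the gene Gm6568, so part of its reads may have been placed on either.

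Xbp1 (chr11:5520659-5525893, plus strand) had 115 FPKM in FLAG against 41.8 in FLAG-CACUL1, and 36.0 in sh-Luc against 61.6 in sh-CACUL1. Its order over the samples was that of Hspa5 except that sh-CACUL1 stood above FLAG-CACUL1. Its log2 fold change in FLAG-CACUL1 was -1.44, the lowest of the 10 genes, with a counting interval from -1.56 to -1.37. It was 0.76 in sh-CACUL1 and -1.65 for sh-Luc against FLAG. The row joins NM_013842 and NM_001271730, the unspliced mRNA and the form spliced by IRE1, so the level is of both together and the spliced share cannot be read from it.

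Among the protein disulfide isomerases, which form and rearrange disulfide bonds, Pdia4 and Pdia6 had the same order of levels over the samples and Pdia3 another. Pdia4 (NM_009787, chr6:47796141-47813430, minus strand) had 178 FPKM in FLAG against 127 in FLAG-CACUL1, and 105 in sh-Luc against 219 in sh-CACUL1. Pdia6 (NM_027959, chr12:17266545-17284770, plus strand) had 204, 171, 132 and 259 FPKM, respectively. Both were highest in sh-CACUL1 and lowest in sh-Luc, in the same order as Dnajb9. In sh-CACUL1 the log2 fold change was 1.05 for Pdia4 (counting interval 1.01 to 1.10) and 0.97 for Pdia6 (0.93 to 1.02), so they fell on either side of 2-fold while their intervals met. In FLAG-CACUL1 the values were -0.49 and -0.26. The ratio of Pdia4 to Pdia6 stayed between 0.743 and 0.872 in the 4 samples.

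Pdia3 (NM_007952, chr2:121413775-121438687, plus strand) encodes ERp57, the isomerase that works on glycoproteins held by calnexin and calreticulin. It had 294 FPKM in FLAG against 565 in FLAG-CACUL1, and 309 in sh-Luc against 234 in sh-CACUL1. FLAG-CACUL1 stood alone above the others, and the controls were nearly equal, with a log2 difference of 0.07. Its log2 fold change was 0.94 with overexpression, just under 2-fold and the highest of the 10, and -0.40 with depletion. Against sh-Luc the value of FLAG-CACUL1 was 0.87, so the higher level did not depend on which control was used. The ratio of Pdia3 to Pdia4 was 1.65 and 4.46 in the FLAG and FLAG-CACUL1 lines and 2.94 and 1.07 in the sh-Luc and sh-CACUL1 lines.

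Hsp90b1 (NM_011631, chr10:86690209-86705509, minus strand) encodes GRP94, the HSP90 of the ER. It had 739 FPKM in FLAG against 617 in FLAG-CACUL1, and 401 in sh-Luc against 265 in sh-CACUL1. Its lowest level was in sh-CACUL1, where Pdia4, Pdia6 and Dnajb9 were highest. Relative to the controls its log2 fold change was -0.26 with overexpression and -0.59 with depletion. After median-of-ratios scaling these values were -0.40 and -0.12. The ratio of Hspa5 to Hsp90b1 was 1.95 in FLAG and 2.06 in sh-CACUL1, but 1.08 in FLAG-CACUL1 and 0.965 in sh-Luc.

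Calr (NM_007591, chr8:84841850-84846934, minus strand) and Canx (NM_001110499, NM_001110500 and NM_007597, chr11:50293961-50325673, minus strand) encode the lectin chaperones calreticulin and calnexin, the former soluble in the ER lumen and the latter anchored in its membrane. Calr had 883 FPKM in FLAG against 984 in FLAG-CACUL1, and 834 in sh-Luc against 794 in sh-CACUL1, and was the most abundant of the 10 genes in every sample but FLAG. Canx had 152.07, 152.55, 139.0 and 134.6 FPKM, respectively. The highest level was 1.24 times the lowest for Calr and 1.13 times for Canx, the smallest spreads of the 10 genes. For Canx the counting interval of the log2 ratio in FLAG-CACUL1 went from -0.04 to 0.05. In sh-CACUL1 the log2 fold change was -0.07 for Calr and -0.05 for Canx, but 0.40 and 0.42 after median-of-ratios scaling. The ratio of Calr to Canx was between 5.80 and 6.45 in the 4 samples, so both lectins kept nearly the same proportion while BiP relative to calnexin went from 9.48 in FLAG to 2.78 in sh-Luc. Both windows before these starts hold an ERSE, as does that of Hspa5.

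Herpud1 (NM_022331, chr8:94386438-94395377, plus strand) encodes an ER membrane protein that takes part in ER-associated degradation and is induced by ER stress. It had 56.3 FPKM in FLAG against 38.2 in FLAG-CACUL1, and 46.2 in sh-Luc against 28.5 in sh-CACUL1. Both conditions were lower than either control. Its log2 fold changes were -0.55 with overexpression and -0.68 with depletion, both under 2-fold, and -0.27 and -0.96 with the other control. Herpud1 was the only gene of the 10 that was below 0 in all 4 of these comparisons.

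**Figure D3:**
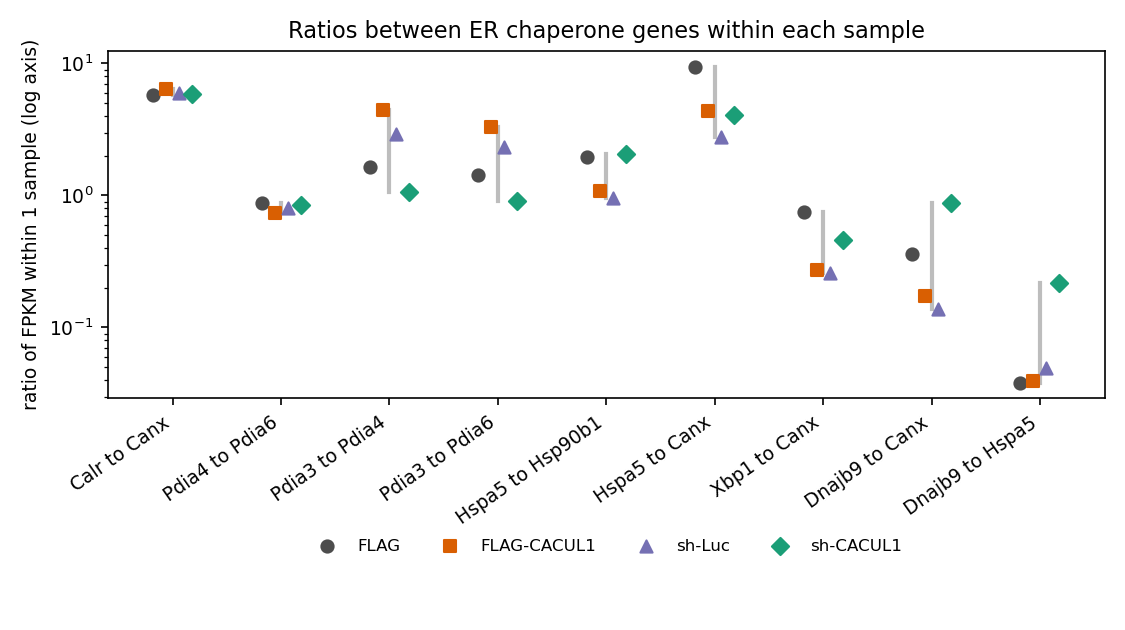
Ratios between the FPKM of named genes within each sample, on a log axis, with 1 point for each line and a grey bar from the lowest to the highest. Ratios within a sample stay the same when each sample is scaled by a single factor, as in median-of-ratios scaling. They can change under quantile normalization. Calr to Canx and Pdia4 to Pdia6 varied little, whereas Dnajb9 to Hspa5 was between 0.0382 and 0.0493 in 3 samples and 0.216 in sh-CACUL1.

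For FLAG-CACUL1 against FLAG, 3 of the 10 genes were at least 2-fold lower, beside 7.22% of all 13085 genes, and 0 were at least 2-fold higher, beside 7.51%. The median log2 fold change was -0.37 over the 10 genes and 0.09 over all genes. Of the 10, 7 were below 0 and 3 (Pdia3, Calr and Canx) above 0, but Canx was below 0 after median-of-ratios scaling. For sh-CACUL1 against sh-Luc, 2 of the 10 were at least 2-fold higher, beside 4.94% of all genes, and 0 were at least 2-fold lower, beside 16.4%. The median was 0.23 over the 10 genes and -0.30 over all genes. Here 5 were above and 5 below 0, and with median-of-ratios scaling, which removed a shift of -0.47 (0.14 for FLAG-CACUL1 against FLAG), Pdia3, Calr and Canx came out above 0, and Pdia6 and Xbp1 passed 2-fold with 1.44 and 1.22. For sh-Luc against FLAG, 3 of the 10 were at least 2-fold lower, beside 8.58% of all genes, and 0 at least 2-fold higher, beside 12.4%. The median of this difference between the controls was -0.69 for the 10 genes and 0.18 for all genes.

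**Figure D4:**
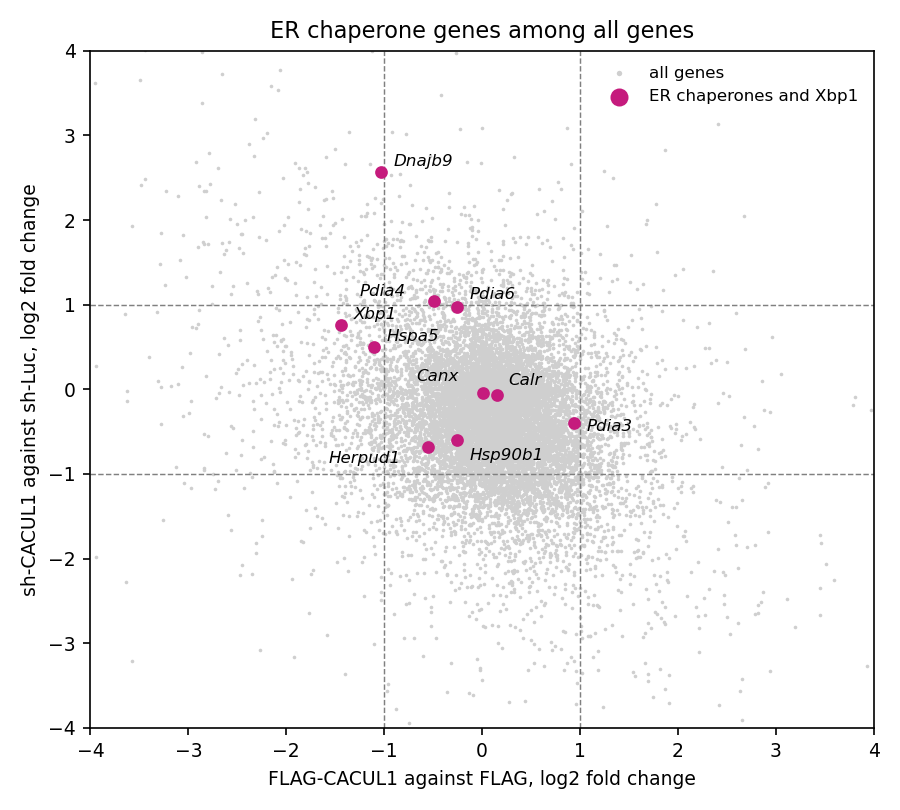
Each gene's log2 fold change of FPKM + 1 in FLAG-CACUL1 against FLAG (horizontal) and in sh-CACUL1 against sh-Luc (vertical), with all genes in grey, the 10 ER genes in colour and dashed lines at 2-fold; 55 genes lie beyond the axes. Dnajb9 stands apart at the top left, and Calr and Canx lie near 0 on both axes.

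With the control of the other vector 4 of the 10 genes kept their sign in FLAG-CACUL1 and 8 in sh-CACUL1. With sh-Luc as the control of FLAG-CACUL1, Hspa5 was 0.79, Dnajb9 0.45 and Xbp1 0.21 on the log2 scale, and 9 of the 10 genes were above 0, with Herpud1 the exception. With FLAG as the control of sh-CACUL1, Hspa5 was -1.40 and Hsp90b1 -1.48, both past 2-fold, and Xbp1 was -0.89. Pdia4 and Pdia6 remained above 0 with 0.29 and 0.34. On the FPKM as deposited, Dnajb9 was the only one of the 10 past 2-fold in the same direction with both controls of sh-CACUL1.

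**Figure D5:**
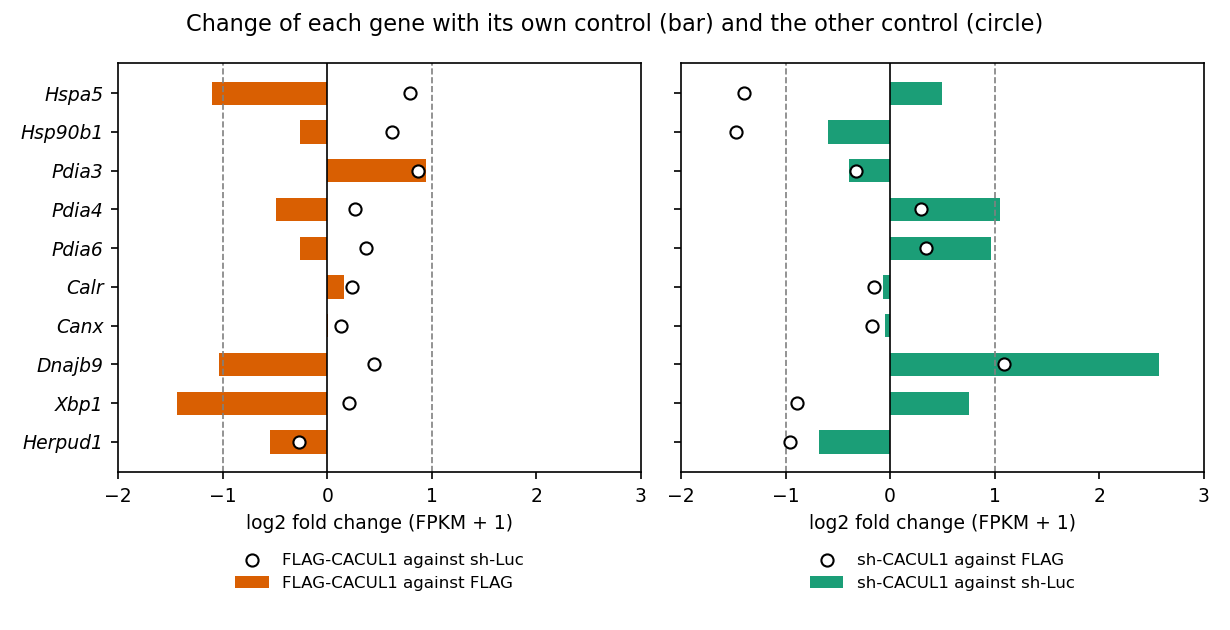
Log2 fold change of FPKM + 1 for each gene in FLAG-CACUL1 (left) and sh-CACUL1 (right), as bars against the control with the same vector and as open circles against the other control. Dashed lines mark 2-fold, and bar and circle lie on opposite sides of 0 for Hspa5, Hsp90b1, Pdia4, Pdia6, Dnajb9 and Xbp1 on the left and for Hspa5 and Xbp1 on the right.

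Genes with other tasks in ER protein folding were read from lists chosen with earlier results of these data known. Their counts are to be read beside the shares of all genes, 7.51% higher and 7.22% lower in FLAG-CACUL1 and 4.94% higher and 16.4% lower in sh-CACUL1, and their medians beside 0.09 and -0.30 for all genes. After median-of-ratios scaling, 14.7% of all genes in FLAG-CACUL1 and 16.9% in sh-CACUL1 were past 2-fold in either direction. Of 22 other ER chaperones and folding enzymes, 2 were at least 2-fold higher and 2 lower in FLAG-CACUL1 (median 0.09), near the shares of all genes. In sh-CACUL1 0 were higher and 6 lower (median -0.42, beside 16.4% of all genes lower), but 5 were higher and 2 lower after median-of-ratios scaling, which left 0 higher and 2 lower in FLAG-CACUL1. P4hb, which encodes the founding protein disulfide isomerase, had 2529 FPKM in FLAG against 917 in FLAG-CACUL1, and 616 in sh-Luc against 499 in sh-CACUL1. Ero1l, which encodes the oxidase that recharges the isomerases, had 2673, 338.9, 118.5 and 52.3 FPKM, respectively. In FPKM both declined in the order in which Hsp90b1 declined. For P4hb the step from sh-Luc to sh-CACUL1 was -0.30, the same as the median of all genes. That step was smaller than the shift of -0.47 that median-of-ratios scaling removed, so its direction depends on the scaling. Ero1l had a log2 difference of -4.48 between sh-Luc and FLAG, beside -2.98 for FLAG-CACUL1 against FLAG and -1.17 for sh-CACUL1 against sh-Luc. Cnpy2, which encodes a small ER protein, had 59.3, 130.7, 94.9 and 26.7 FPKM. Uggt1, whose enzyme reglucosylates misfolded glycoproteins so that calnexin and calreticulin bind them again, had 10.8, 18.9, 25.6 and 8.31 FPKM. Cnpy2 was past 2-fold in both conditions, with 1.13 and -1.79, and Uggt1 in sh-CACUL1 with -1.51.

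Of 15 sensors and effectors of the unfolded protein response, 0 were at least 2-fold higher and 2 lower in FLAG-CACUL1 (median -0.30), beside 7.22% of all genes lower, and 0 higher and 7 lower in sh-CACUL1 (median -0.64), beside 16.4% lower. After median-of-ratios scaling these counts were 0 and 4 with overexpression and 1 and 3 with depletion. Under that scaling 14.7% and 16.9% of all genes, respectively, were past 2-fold in either direction. The log2 fold changes in this paragraph are before that scaling, which removed a shift of -0.47 in sh-CACUL1. Ddit3 had 820 FPKM in FLAG against 447 in FLAG-CACUL1, and 216 in sh-Luc against 67.0 in sh-CACUL1. Trib3, a pseudokinase gene induced downstream of ATF4 and CHOP, had 89.5, 32.7, 25.4 and 10.0 FPKM. Both were lower in each condition than in its own control, with log2 fold changes of -0.88 and -1.68 for Ddit3 and of -1.43 and -1.26 for Trib3. For sh-Luc against FLAG the values were -1.92 and -1.78. Both genes were higher in FLAG-CACUL1 than in sh-Luc, so their lower level with overexpression held only against FLAG. On the FPKM as deposited and with the own controls, the 10 ER genes did not share a pattern. Hspa5, Dnajb9, Xbp1, Pdia4 and Pdia6 were below 0 with overexpression and above 0 with depletion. Hsp90b1 and Herpud1 were below 0 in both, as Ddit3 and Trib3 were. Pdia3, Calr and Canx were above 0 with overexpression and below 0 with depletion. Against sh-Luc, Hspa5, Dnajb9, Xbp1, Pdia4 and Pdia6 were above 0 in FLAG-CACUL1. Creb3l1 and Creb3l2, which encode ER-bound transcription factors related to ATF6, had -1.83 and -1.68 in sh-CACUL1. Creb3l2 went from 15.5 FPKM in sh-Luc to 4.14 in sh-CACUL1. The gene of the XBP1-splicing sensor, Ern1, had 7.26 FPKM in FLAG against 4.99 in FLAG-CACUL1, and 4.57 in sh-Luc against 1.34 in sh-CACUL1; it is named for its role and not by rank.

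Of 18 measured genes of ER-associated degradation, 1 was higher and 0 lower in FLAG-CACUL1 (median 0.10, but 0 higher and 1 lower after median-of-ratios scaling), and 0 higher and 1 lower in sh-CACUL1 (median -0.50, but 2 higher and 1 lower after that scaling). These counts lie near or below the shares of all genes. Vcp, the ATPase that pulls substrates from the membrane, had 62.3 FPKM in FLAG against 133.7 in FLAG-CACUL1, and 119.7 in sh-Luc against 109.8 in sh-CACUL1. Os9, whose lectin reads the glycans of misfolded proteins, was at 74.3 FPKM in sh-Luc and 20.8 in sh-CACUL1, a log2 fold change of -1.79. Of 22 genes of the translocon, signal peptidase and oligosaccharyltransferase, which bring proteins into the ER, trim and glycosylate them, 1 was lower in FLAG-CACUL1 (Spcs3, -1.13) and none higher. In sh-CACUL1 1 was higher (Sec11c, 1.16) and 1 lower (Ssr1, -1.18), and the latter was under 2-fold after median-of-ratios scaling. The medians of this list were -0.07 and -0.30, the latter close to the median of all genes and 0.16 after median-of-ratios scaling, and its counts were below the shares of all genes.

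Of 15 cytosolic chaperones, 1 was higher and 0 lower in FLAG-CACUL1 (Dnaja1, 1.28), and 1 was higher and 1 lower in sh-CACUL1, with medians of 0.20 and -0.61, beside 0.09 and -0.30 for all genes and, for the latter, -0.14 after median-of-ratios scaling. The counts are near or below the shares of all genes given above. Cct2, a subunit of the chaperonin that folds actin and tubulin, had 699 FPKM in FLAG against 790 in FLAG-CACUL1, and 151 in sh-Luc against 779 in sh-CACUL1, so sh-Luc alone was low. The other subunits listed did not share this profile, since Cct3, Cct4 and Cct5 were highest in sh-Luc and Tcp1 in FLAG. Hsph1, an HSP70 nucleotide exchange factor, had 14.8, 26.7, 48.9 and 17.0 FPKM. Its log2 fold change in sh-CACUL1 was -1.47.

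The genes whose profile over the 4 samples was nearest to that of Hspa5, among 9563 genes with at least 1 FPKM in every sample, were Ypel3, Prnp, Aldoa, Trp53inp2 and Gpcpd1. Likeness was the Euclidean distance between log2(FPKM + 1) profiles centred on their own means, and it ran from 0.210 to 0.248 for these 5. Aldoa, the aldolase of glycolysis, had 2085 FPKM in FLAG against 1169 in FLAG-CACUL1, and 588 in sh-Luc against 769 in sh-CACUL1. Of the other 9 ER genes Xbp1 was the nearest to Hspa5, at rank 140 with a distance of 0.624, and Dnajb9 the farthest, at rank 7267. Nearest to Xbp1 were Fads2, Slc27a4, 2700097O09Rik, Gas2l3 and Tmem97, from 0.083 to 0.207. Fads2, a fatty acid desaturase, had 125 FPKM in FLAG against 47.2 in FLAG-CACUL1, and 38.7 in sh-Luc against 71.2 in sh-CACUL1. With 4 samples many genes come close to any profile, so these names are a description.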

How the data were processed

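The 4 samples, 1 for each stable line, were grouped by the labels. The authors deposited FPKM values for 13110 rows of RefSeq transcripts per sample, prepared at a sequencing company with a 2-fold cut-off for changed genes. The submitters' processing notes name the mouse build mm10, and the aligner, the program behind FPKM, the use of strand in counting and any filter are not given in the sources used here. Rows were joined to symbols through GENCODE M21 (12911 rows) and then a RefSeq gene table (144 rows). A further 8 rows had several symbols and 47 had none, and rows of 1 symbol were summed, which gave 13085 genes. Exons of Hsp90b1, Pdia3, Pdia4, Pdia6 and Dnajb9 overlap other annotated genes. Changes were taken as log2 ratios of FPKM + 1, which understate those of low genes, and called at 2-fold. With 1 sample per group no test was run. Depth was estimated from the even spacing of FPKM times length over single-transcript rows no shorter than 3000 bases, and counting intervals (95%, exact binomial) come from these estimates. Promoter sequences are from RefSeq, and all 10 genes matched.

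The genes and lists were chosen with earlier results of these data known. From each of the 5 lists the text names genes past 2-fold in FLAG-CACUL1 or sh-CACUL1 against its control and at 1 FPKM or more in all samples, at most the 4 with the largest change. For Hspa5 and Xbp1 it names the 5 nearest profiles. Ern1, Cct3, Cct4, Cct5 and Tcp1 were named outside this rule. The alternatives were a pseudocount of 0.1, none, a filter at 1 FPKM in all samples, median-of-ratios scaling, quantile normalization, the highest row of a symbol in place of the sum, a limit of 3-fold or 1.5-fold, and the control of the other vector. The scripts were tested on simulated data. Python 3.11.15, numpy 2.4.6, pandas 2.3.3, scipy 1.17.1 and matplotlib 3.10.9 were used.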

Additional observations from a re-analysis of the deposited data

How the results depend on the processing

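With a pseudocount of 0.1, with none, with the filter at 1 FPKM and with the highest row of a symbol, all 10 genes kept their sign and the calls were the same genes in each of the 3 comparisons. Median-of-ratios scaling kept all calls too. Under it the median was -0.51 for FLAG-CACUL1 against FLAG. For sh-CACUL1 against sh-Luc 4 genes were at least 2-fold higher (Pdia6 and Xbp1 were added) with a median of 0.70. Beside them, 16.9% of all genes were past 2-fold in either direction. For sh-Luc against FLAG this scaling gave 5 lower genes (Hsp90b1 and Pdia4 were added) and a median of -0.98. There 19.1% of all genes were past 2-fold in either direction. Quantile normalization gave 4 higher genes in sh-CACUL1 (Pdia6 and Xbp1 were added) with a median of 0.32, and a median of -0.48 between the controls. In sh-CACUL1 it put 17.3% of all genes past 2-fold in either direction. At a limit of 3-fold 0 genes were lower in FLAG-CACUL1 (5.07% of all genes were past it in either direction), 1, Dnajb9, was higher in sh-CACUL1 (7.15%), and 2, Hspa5 and Xbp1, were still lower in sh-Luc than in FLAG (7.60%). At 1.5-fold 1 was higher and 3 lower in FLAG-CACUL1 (34.3% of all genes past it), 4 were higher and 2 lower in sh-CACUL1 (44.4%), and 6 were lower in sh-Luc than in FLAG (43.0%), so at this limit the counts say little about the 10 genes. With sh-Luc as the control of FLAG-CACUL1, 0 genes were at least 2-fold lower, beside 9.90% of all genes past 2-fold in either direction. The median was 0.32, and the direction reversed for Hspa5 (0.79), Dnajb9 (0.45) and Xbp1 (0.21). With FLAG as the control of sh-CACUL1, 1 gene was higher (Dnajb9), 2 were lower (Hspa5 and Hsp90b1), beside 22.9% of all genes past 2-fold in either direction, and the median was -0.25. The cause of these shifts was not tested.

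No paired analysis was possible because each line had 1 sample. Vector, selection drug and line cannot be told apart, and the spread between cultures of 1 line is unknown. Counting depth limits the calls of Dnajb9 in FLAG-CACUL1 and of Pdia6 in sh-CACUL1, whose counting intervals reach across 2-fold, and the widest interval of the 10 genes reached 0.12 on either side on the log2 scale.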
